A study of Homo sapiens with 2 samples.

Results

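Epithelial cells and mesenchymal cells carry different microRNAs (miRNAs), and 11 miRNA names that mark these states were examined in the small RNA of MDA-MB-231-IV2-1 cells with and without knockdown of the long non-coding RNA LOC550643. The miRNAs were taken by name. The epithelial names were miR-200a, miR-200b, miR-200c, miR-141, miR-429 and miR-205, the mesenchymal or stromal names were miR-143, miR-145, miR-199a, miR-199b and miR-214, and either arm of the hairpin was accepted. A product that a table did not hold was taken as 0. Of the 425 mature miRNAs listed in either library, 13 belonged to these names, 10 of them mesenchymal and 3 epithelial. The control library listed 12 of its 376 miRNAs under these names (10 mesenchymal, 2 epithelial), and the knockdown library 13 (10 mesenchymal, 3 epithelial). In all, 20 mature names were searched, 10 in each set. They were those with a RefSeq mature sequence and any others that a library listed. All 10 mesenchymal products were listed, but miR-199b-5p, without a RefSeq sequence, entered only because it was listed (0.333 of a read in the control). Of the 10 epithelial products, 7 were in neither library. An arm with neither a sequence nor a listing, such as the 5p arm of miR-141, was not counted.

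MDA-MB-231-IV2-1 was isolated in mice as a strongly metastatic derivative of MDA-MB-231, a human triple-negative breast cancer line; the sample titles name the IV2 subline, whereas the cell line field names MDA-MB-231. There was 1 control library, from cells given the scrambled siRNA (N.C), and 1 knockdown library, from cells given pooled siRNAs against LOC550643, a transient depletion; these are called the control and the knockdown. Both were transfected for 48 h at 10 nmol/L siRNA and grown in medium with serum, and they carried no other labelled treatment. The level of LOC550643 is not part of the miRNA tables, so the knockdown could not be checked in these libraries.

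With 1 library per condition, no difference between the libraries could be checked against replicates, and p-values are not given. Levels are reads per 1000000 reads assigned to miRNAs (RPM), and 1 read was worth 5.29 RPM in the control and 2.03 RPM in the knockdown, which corresponds to about 189034 and 491541 reads. The floor used for a count of 0, 3 reads, was therefore 15.9 RPM and 6.10 RPM. It is a one-sided limit, and the two-sided interval of 0 reads reaches further, to 19.5 and 7.505 RPM. The knockdown library was the deeper one and resolved lower levels. Intervals are 95% Clopper-Pearson intervals of the estimated reads and cover counting error only, since reads amplified by PCR without molecular identifiers are not independent molecules. In RNA pooled from many cells, fewer cells carrying a miRNA and less of it per cell cannot be told apart.

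A mature miRNA of either arm guides the silencing complex to messenger RNAs mainly through its seed, bases 2 to 8 from the 5′ end. The miR-200 family (miR-200a, miR-200b, miR-200c, miR-141 and miR-429) and miR-205 are known to repress the transcription factors ZEB1 and ZEB2, which in turn shut down E-cadherin and the miR-200 genes, and carcinoma cells that have passed through the epithelial-mesenchymal transition commonly carry little of them. miR-143 and miR-145 are transcribed together and are best known from smooth muscle and fibroblasts, and miR-199a and miR-214 share a transcript that is active in mesenchyme. MDA-MB-231 is a widely used example of a breast cancer line of mesenchymal type.

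The mesenchymal products that carried most of the signal are printed here from RefSeq (GRCh38.p14), with the seed in capitals, because the levels that follow are assigned by these letters. A RefSeq mature sequence was found for 19 of the 20 names searched, and for 12 of the 13 listed (miR-199b-5p was not matched).
hsa-miR-143-3p: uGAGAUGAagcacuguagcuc
hsa-miR-145-5p: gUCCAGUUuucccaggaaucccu
hsa-miR-199a-3p: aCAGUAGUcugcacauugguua
hsa-miR-199b-3p: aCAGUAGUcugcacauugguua
hsa-miR-199a-5p: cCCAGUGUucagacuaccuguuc
hsa-miR-214-3p: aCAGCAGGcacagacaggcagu
hsa-miR-214-5p: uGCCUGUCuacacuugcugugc
miR-199a-3p and miR-199b-3p were identical over all 22 bases. Among all human mature miRNAs of the table, the seed of miR-143-3p was shared with miR-4770 and miR-6088. The seed of miR-199a-3p and miR-199b-3p was shared with miR-3129-5p, and that of miR-214-3p with miR-3619-5p and miR-761.

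The epithelial products are shown in the same way, grouped by seed, because the 2 that were read in both libraries differ by few letters.
hsa-miR-200b-3p: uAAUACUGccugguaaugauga
hsa-miR-200c-3p: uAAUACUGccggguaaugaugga
hsa-miR-429: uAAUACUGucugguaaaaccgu
hsa-miR-200a-3p: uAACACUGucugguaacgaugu
hsa-miR-141-3p: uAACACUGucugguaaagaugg
hsa-miR-200a-5p: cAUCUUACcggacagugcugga
hsa-miR-205-5p: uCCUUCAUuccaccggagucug
miR-200b-3p, miR-200c-3p and miR-429 share the seed AAUACUG, and miR-200a-3p and miR-141-3p share AACACUG. Counted from the 5′ end, miR-200c-3p differed from miR-200b-3p at U11G and A22G and was longer (23 against 22 bases), with the base of miR-200b-3p written first. With the base of miR-200a-3p written first, miR-200b-3p differed from it at C4U, within the seed, and at U9C, C17U and U22A. miR-205-5p has a seed of its own, CCUUCAU.

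The hairpins lie in 7 places of the genome (GRCh38, with GENCODE 29 annotation). MIR143 at chr5:149428918-149429023 and MIR145 at chr5:149430646-149430733, both on the plus strand, lie in the long non-coding gene CARMN, MIR143 over an exon and MIR145 in an intron, with 1622 bases between them. MIR214 at chr1:172138798-172138907 and MIR199A2 at chr1:172144535-172144644, both on the minus strand, overlap exons of the non-coding DNM3OS, opposite an intron of DNM3, with 5627 bases between them. The other miR-199 hairpins also lie opposite introns of dynamin genes, MIR199A1 at chr19:10817426-10817496 within DNM2 and MIR199B at chr9:128244721-128244830 within DNM1. The epithelial hairpins form a cluster on chromosome 1 outside any overlapping annotated gene, MIR200B (chr1:1167104-1167198), MIR200A (chr1:1167863-1167952) and MIR429 (chr1:1169005-1169087). A second cluster lies in an intron of MIR200CHG on chromosome 12, MIR200C (chr12:6963699-6963766) and MIR141 (chr12:6964097-6964191), and MIR205 (chr1:209432133-209432242) overlaps an exon of MIR205HG. All of these epithelial hairpins are on the plus strand.

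The cells carried miR-143-3p at a high level, the other mesenchymal miRNAs at lower levels, and the epithelial ones at the level of single reads. The 10 mesenchymal products summed to 36640 RPM in the control (95% interval 35797 to 37496, 6926 reads) and to 58212 RPM in the knockdown (57558 to 58869, 28613 reads). The epithelial products summed to 10.6 RPM in the control (1.28 to 38.2, 2 reads) and to 10.2 RPM in the knockdown (3.30 to 23.7, 5 reads). The mesenchymal sum was thus 3463 times the epithelial sum in the control (958 to 28601) and 5723 times in the knockdown (2452 to 17626). Within each library the sets were separated by far more than the counting error, and the intervals of the ratio overlapped between the libraries. Most of the mesenchymal sum was a single product, as miR-143-3p held 95.8% of it in the control and 96.9% in the knockdown. Without miR-143-3p the mesenchymal sum was 1555 and 1794 RPM, still 147 and 176 times the epithelial sum.

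**Figure D1:**
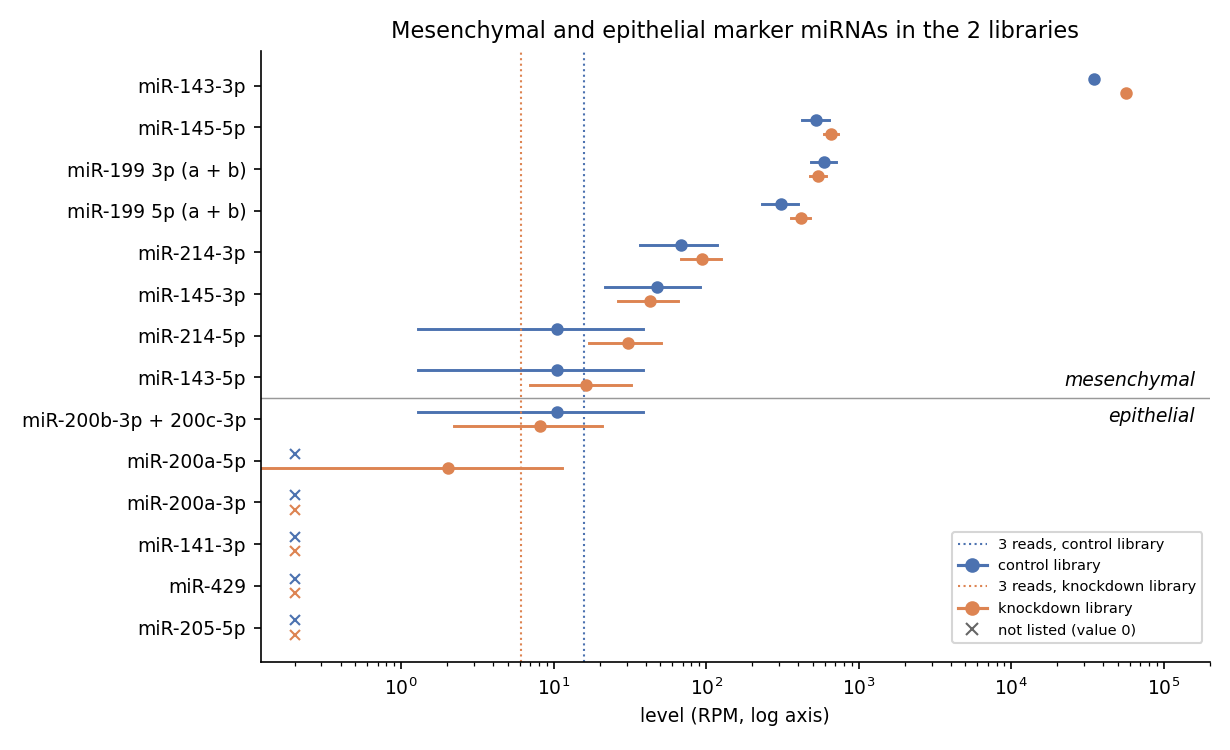
Level of the marker miRNAs in the control and knockdown libraries, in RPM on a log axis, with 95% Clopper-Pearson counting intervals as bars and the 3-read limit of each library as a line. The miR-199 arms of a and b are joined, as are miR-200b-3p and miR-200c-3p. Crosses mark drawn products that a library did not list. miR-143-3p stands at 35085 and 56417 RPM, and the other mesenchymal miRNAs spread from 10.6 to 657 RPM. The listed epithelial miRNAs lie near or under the 3-read limit.

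Among the epithelial miRNAs, miR-200b-3p was at 5.29 RPM in the control (1 read) and 7.12 RPM in the knockdown (3.50 reads). miR-200c-3p was at 5.29 RPM (1 read) and 1.02 RPM (0.501 of a read). Because fractions of a read were listed for both of these near-identical products in the knockdown, they were added. Together they gave 10.6 RPM (2 reads) and 8.14 RPM (4 reads), a ratio of 0.769 with an interval of 0.110 to 8.50. No difference between the libraries was detectable at this depth. The remaining listed product, miR-200a-5p, the minor arm of its hairpin, was at 0 in the control and 2.03 RPM (1 read) in the knockdown, within the limit of both. In the control library 105 of the 376 listed miRNAs were at 1 read or less, and in the knockdown 45 were, so these levels were at the lower end of each library.

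The 7 products in neither library were miR-200a-3p, miR-141-3p, miR-429, miR-205-5p, miR-205-3p, miR-200b-5p and miR-200c-5p. They include the main arms of miR-200a, miR-141 and miR-205. By the 3-read floor, a count of 0 allows each of them up to 15.9 RPM in the control and 6.10 RPM in the knockdown. The seed group AACACUG (miR-200a-3p, miR-141-3p) had no read in either library, and the reads with the seed AAUACUG all came from miR-200b-3p and miR-200c-3p. An appearance of these 7 products after knockdown was not detected above these limits. Of the listed epithelial products, miR-200b-3p was under the limit in the control (5.29 RPM). It was just over the lower limit of the deeper knockdown library (7.12 RPM, 3.50 reads).

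miR-143-3p, the main arm of miR-143, was at 35085 RPM in the control (34259 to 35923, 6632 reads) and at 56417 RPM in the knockdown (55773 to 57065, 27731 reads). It was the 7th most abundant of the miRNAs in the control and the 6th in the knockdown, with 3.51% and 5.64% of all reads. The knockdown library was 1.61-fold higher (1.57 to 1.65), a log2 fold change of 0.69 on the log2(RPM + 1) scale. The neighbours of miR-143-3p in the control moved by less or the other way. miR-30a-5p, ranked 5, was at 67339 and 66412 RPM (log2 fold change -0.02), and miR-151a-3p, ranked 6, went from 36154 to 48420 RPM (0.42). miR-7-5p, ranked 8, went from 27552 to 22735 RPM (-0.28), and let-7f-5p, ranked 9, from 24591 to 20191 RPM (-0.28). Among the 51 miRNAs that averaged 1000 RPM or more, the log2 fold change of miR-143-3p was the 4th highest, below those of miR-27a-5p (1.48), miR-34c-5p (1.42) and miR-30c-2-3p (0.70), and 7.84% of the 51 exceeded 1.5-fold on the higher side and 3.92% exceeded 2-fold. In this group 31.4% were higher and 68.6% lower in the knockdown without a threshold.

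**Figure D2:**
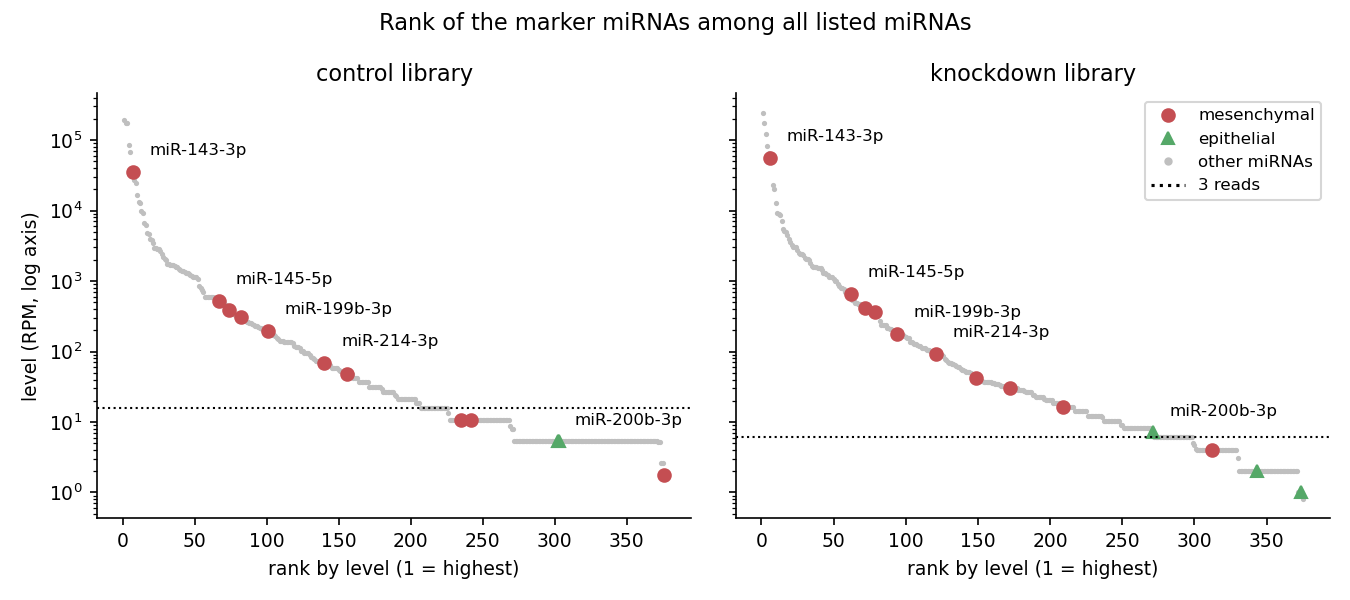
Level in RPM (log axis) against rank for all miRNAs listed in the control (left) and in the knockdown (right), with the mesenchymal miRNAs as circles, the epithelial ones as triangles and the 3-read limit as a dotted line; equal levels are ordered by name. miR-143-3p stands in the 7th and 6th place, miR-145-5p in the 67th and 62nd, and the epithelial miRNAs among the lowest levels.

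miR-145-5p, the main arm of the hairpin next to miR-143, stood far below it, at 524 RPM in the control (426 to 638, 99 reads) and 657 RPM in the knockdown (587 to 733, 323 reads). The ratio of the libraries was 1.25 (0.999 to 1.59), so the interval just reached equality. miR-145-3p was at 47.6 RPM (21.8 to 90.4, 9 reads) and 42.7 RPM (26.4 to 65.3, 21 reads), a ratio of 0.897 (0.394 to 2.23), and miR-143-5p was at 10.6 RPM (2 reads) and 16.3 RPM (8 reads), a ratio of 1.54 with an interval of 0.307 to 14.9. Neither minor arm differed between the libraries by more than the counting error. Although both hairpins lie in CARMN, the reads of miR-143 outnumbered those of miR-145 by 61.4 times in the control and 80.6 times in the knockdown. Expressed as a share, miR-145 made up 1.60% of the reads of the pair (1.32 to 1.93) in the control and 1.22% (1.10 to 1.36) in the knockdown. These intervals overlapped only from 1.32 to 1.36%. Overlap of separate intervals does not show that the shares were equal, and their difference was not tested. Library preparation recovers different small RNA ends unequally, so levels of different miRNAs are compared here as sequenced reads only.

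The miR-199 products need to be read together. The 3p sequence printed above is carried by 3 hairpins, shown here with this arm in capitals.
MIR199A1: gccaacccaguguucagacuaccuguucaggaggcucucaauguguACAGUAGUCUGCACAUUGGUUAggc
MIR199A2: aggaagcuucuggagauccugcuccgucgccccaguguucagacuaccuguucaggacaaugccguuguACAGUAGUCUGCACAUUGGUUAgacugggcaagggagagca
MIR199B: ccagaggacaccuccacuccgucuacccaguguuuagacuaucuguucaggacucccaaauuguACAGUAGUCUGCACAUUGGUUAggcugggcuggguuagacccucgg
The tables listed miR-199a-3p at 391 and 360 RPM and miR-199b-3p at 197 and 179 RPM in the control and knockdown libraries, a ratio of 1.99 and 2.01 between the names. In reads, these were 73.8 and 37.2 in the control, fractions that add to 111 whole reads, and 177 and 88.0 in the knockdown, 265 in all. The division between the names thus carries no information on which hairpin was active, and only the sum was compared.

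The miR-199 3p product was at 587 RPM in the control (483 to 707) and 539 RPM in the knockdown (476 to 608), a ratio of 0.918 (0.733 to 1.16). Its difference was within the counting error and its direction was not fixed, since the log2 fold change of -0.12 became 0.08 when the libraries were scaled by the median of ratios and 0.17 when scaled by the 75th percentile; miR-145-3p turned in the same way, from -0.15 to 0.04 and 0.13. The 5p arm of the same hairpins, listed almost wholly as miR-199a-5p (305 and 411 RPM), was at 307 RPM together with miR-199b-5p in the control (233 to 397, 58 reads) and 415 RPM in the knockdown (360 to 476, 204 reads). The ratio was 1.35 (1.01 to 1.84). miR-199b-5p, whose hairpin has its own 5p letters, was listed at 1.76 RPM (0.333 of a read) and 4.07 RPM (2 reads), within the 3-read limit in both libraries.

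miR-214-3p, from the hairpin that shares DNM3OS with MIR199A2, was at 68.8 RPM in the control (36.6 to 118, 13 reads) and 93.6 RPM in the knockdown (68.5 to 124.8, 46 reads), a ratio of 1.36 (0.723 to 2.75). miR-214-5p was at 10.6 RPM in the control (1.28 to 38.2, 2 reads) and 30.5 RPM in the knockdown (17.1 to 50.3, 15 reads), a ratio of 2.88 (0.671 to 26.0). Both arms were listed higher in the knockdown and neither beyond the counting error. The reads of miR-214 were 8.15% of those of miR-214 and miR-199 together in the control (4.63 to 13.1) and 11.5% in the knockdown (8.92 to 14.5).

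The levels gave the order miR-143-3p, miR-199 3p, miR-145-5p, miR-199 5p and miR-214-3p in the control and miR-143-3p, miR-145-5p, miR-199 3p, miR-199 5p and miR-214-3p in the knockdown. miR-145-5p and miR-199 3p changed places, and their intervals overlapped in both libraries. miR-199 5p lay under both of them. In the knockdown its interval ended at 476.03 RPM, just below the start of that of miR-199 3p at 476.17 RPM. The intervals of miR-143-3p and of miR-214-3p overlapped with no neighbour in this order.

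Of the 10 mesenchymal products, 1 (miR-214-5p) was more than 2-fold higher in the knockdown and 0 were more than 2-fold lower, where 17.9% of all 425 miRNAs passed this threshold upward and 27.3% downward. At 1.5-fold the mesenchymal count was 3 higher (miR-143-3p, miR-199b-5p and miR-214-5p) and 0 lower, against 22.4% and 35.3% of all miRNAs. Without a threshold 7 of the 10 were higher and 3 lower (miR-145-3p, miR-199a-3p and miR-199b-3p), against 42.4% and 57.6%, and the 3 lower ones turned higher under either of the other scalings. The median log2 fold change of the 10 was 0.43, and that of all 425 was -0.20. These 10 are not independent of each other, since the 2 names of the miR-199 3p arm hold the same reads and arms share hairpins. Of the 3 epithelial products 1 was counted as higher (miR-200a-5p) and 1 as lower (miR-200c-3p), each within the 3-read limit in both libraries.

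Most miRNAs beyond 2-fold in these libraries were of low level, so the abundant ones were also taken alone. Of those averaging at least 100 RPM over the libraries, 2.42% were beyond 2-fold on the higher side and 5.65% on the lower side. The 5 mesenchymal miRNAs of this level (miR-143-3p, miR-145-5p, miR-199a-3p, miR-199a-5p and miR-199b-3p) had 0 beyond 2-fold in either direction and 1 beyond 1.5-fold higher, miR-143-3p, where 8.87% of the miRNAs of this level were. Without a threshold 3 of the 5 were higher and 2 lower, against 39.5% and 60.5%. Their median log2 fold change was 0.33, against -0.09 over all miRNAs of this level. By log2 fold change from the highest, miR-143-3p stood 9th in that group, miR-199a-5p 21st, miR-145-5p 25th, miR-199a-3p 65th and miR-199b-3p 66th. No epithelial miRNA reached this level.

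Most of the difference in the mesenchymal sum came from miR-143-3p. The sum was 1.59-fold higher (1.55 to 1.63) with miR-143-3p and 1.15-fold higher (1.01 to 1.32) without it, and the epithelial sum had a ratio of 0.961 (0.157 to 10.1). The interval of the epithelial ratio held that of the mesenchymal ratio, so a difference between the sets in their response was not detectable at this depth.

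**Figure D3:**
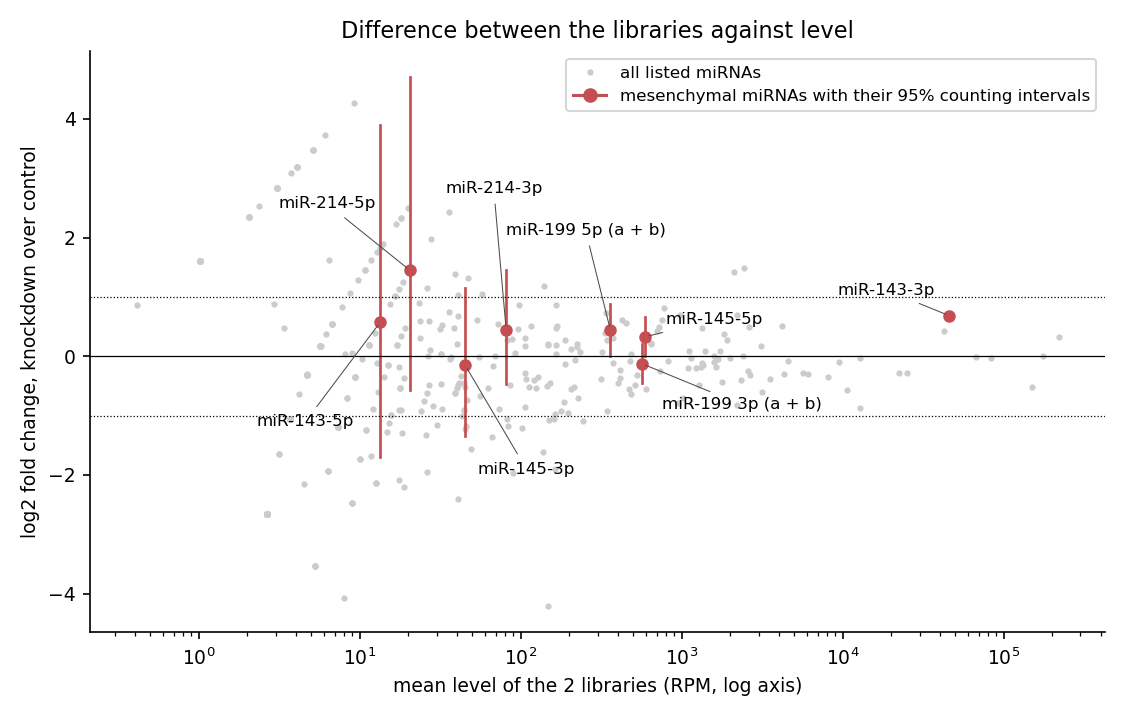
Log2 fold change, knockdown over control, against the mean level of the 2 libraries in RPM (log axis) for all listed miRNAs (grey) and for the mesenchymal miRNAs, with the miR-199 arms of a and b joined and miR-199b-5p not drawn alone (red, with 95% counting intervals; dotted lines mark 2-fold). miR-143-3p has a narrow interval at 0.69, and the intervals of the lower miRNAs widen until that of miR-214-5p spans -0.58 to 4.70.

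Each hairpin gives a 5p and a 3p product, and the share of the minor arm is a readout within a library that needs no scaling between them. The 5p arm held 0.030% of the miR-143 reads in the control (0.0037 to 0.109) and 0.029% in the knockdown (0.012 to 0.057), and the 3p arm 8.33% (3.88 to 15.2) and 6.10% (3.82 to 9.18) of the miR-145 reads. The intervals of both shares overlapped between the libraries. For miR-199, with a and b joined, the 5p arm held 34.3% of 169 reads in the control (27.2 to 42.0) and 43.5% of 469 reads in the knockdown (39.0 to 48.1). These intervals overlapped only from 39.0 to 42.0%. Overlap of separate intervals does not show that the shares were equal, and no difference in arm shares was tested. For miR-214 the 5p arm held 13.3% of 15 reads (1.66 to 40.5) and 24.6% of 61 reads (14.5 to 37.3). miR-143 was thus read almost wholly from 1 arm, and miR-199 from both.

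**Figure D4:**
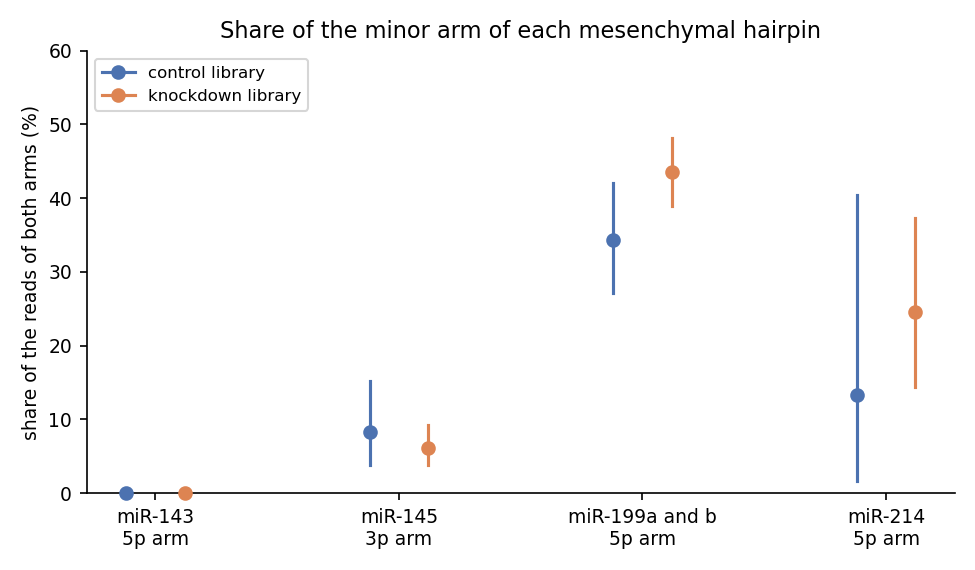
Share of the reads of each mesenchymal hairpin, or group of hairpins, that came from its less abundant arm, in percent, for the control and knockdown libraries, with 95% Clopper-Pearson intervals as bars. The intervals of the 2 libraries overlap for all 4, which does not show that the shares were equal. The shares run from about 0.03% for miR-143 to 43.5% for miR-199.

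A wider list of miRNAs that are commonly high in mesenchymal-like carcinoma cells was set beside these (miR-9, miR-10b, miR-21, miR-22, miR-100, miR-125b, miR-155, miR-221 and miR-222). All 9 names were listed, with 17 products that summed to 368558 RPM in the control and 314419 RPM in the knockdown. Of the 17, 9 were higher and 8 lower in the knockdown, 1 of each beyond 2-fold, where 42.4% of all 425 were higher and 57.6% lower, and 17.9% and 27.3% beyond 2-fold. Those beyond 2-fold were miR-100-3p (0 and 3 reads) and miR-9-3p (1 and 0 reads), each within the 3-read limit in both libraries. The median log2 fold change of the 17 was 0.0083, against -0.20 over all. miR-100-5p was at 176488 and 123767 RPM (log2 fold change -0.51), miR-21-5p, abundant in many carcinomas, was at 176112 and 175898 RPM, and miR-222-3p and miR-221-3p, which share a transcript, went from 6232 to 5096 RPM and from 4772 to 3890 RPM (-0.29 each). In the other direction, miR-125b-1-3p went from 746 to 1213 RPM (0.70) and miR-221-5p from 1603 to 2081 RPM (0.38). The other products over 3 reads in both libraries were miR-125b-5p (1740 and 1528 RPM), miR-22-3p (333 and 415 RPM), miR-21-3p (206.3 and 238 RPM), miR-9-5p (169 and 120 RPM), miR-125b-2-3p (68.8 and 69.2 RPM), miR-22-5p (37.0 and 42.7 RPM) and miR-10b-5p (18.5 and 28.5 RPM). Near the limit stood miR-155-5p, the only listed product of its name (15.9 and 10.2 RPM, 3 and 5 reads), and miR-222-5p (10.6 and 16.3 RPM, 2 and 8 reads).

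Other miRNAs enriched in epithelia were near the limit as well, with an exception. miR-203a, miR-203b and miR-375 were in neither library, and miR-194-5p and miR-215 were at 10.6 and 2.65 RPM in the control and at 10.2 RPM each in the knockdown. miR-192-5p, known from gut and liver epithelium, was at 600 RPM in the control (497 to 724) and at 913 RPM in the knockdown (831 to 1002), a log2 fold change of 0.60 (0.30 to 0.91). The low level of the miR-200 family was therefore not common to every epithelial-enriched miRNA.

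Since miR-143, miR-145 and miR-199 are also products of stromal cells, names that mark other cell types were looked up. Of 16 names for blood cells, endothelium, striated muscle, liver and neurons, 4 were listed, with 5 products that summed to 148 RPM in the control and 154.6 RPM in the knockdown. Of the 6 blood names miR-486 was listed (miR-486-5p at 74.1 and 89.5 RPM), whereas miR-142, miR-144, miR-150, miR-223 and miR-451a were at 0 in both libraries. The endothelial miR-126-3p was at 10.6 and 16.3 RPM (2 and 8 reads). Of the 7 muscle names, miR-206 was at 52.9 and 36.6 RPM and miR-1 at 0 and 6.10 RPM, and miR-133a, miR-133b, miR-208a, miR-208b and miR-499a were at 0, as were miR-122 and miR-124. Fibroblasts and smooth muscle have no list apart from the mesenchymal miRNAs themselves, and their presence was not tested.

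The study looked for miRNAs that bind LOC550643, so the reverse complements of the seeds were looked up in the letters of its isoforms V1 (718 nt), V2 (581 nt) and V3 (476 nt). Of the 19 marker products with a sequence, 1 had a 7-base match (bases 2 to 8) in each isoform: miR-200c-5p, as GTAAGAC, in V1 from base 541 to 547, in V2 from base 404 to 410 and in V3 from base 299 to 305. That product was in neither library. By comparison, 5.86%, 4.77% and 3.71% of the 2370 human mature miRNAs of the reference had a 7-base match in V1, V2 and V3. For the 6-base match (bases 2 to 7), miR-143-3p had 1 site, CATCTC, at bases 29 to 34 of V1 and V2 and none in V3, and miR-200c-5p had 2 sites (TAAGAC, of which 1 is part of its 7-base match) in each isoform. A 6-base match was held by 18.8%, 15.6% and 12.6% of the 2370 miRNAs. The sense strand of each isoform was searched, and a match describes letters only.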

How the data were processed

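Small RNA libraries from MDA-MB-231-IV2-1 cells (1 control, 1 knockdown) were prepared by the authors with a NEBNext small RNA kit. Per the submitters' processing notes, FastQC, cutadapt and hg38 were used; the study's methods name MiSeq, and the labels also name HiSeq. The authors assigned the reads with their own tool and deposited 1 RPM value per mature miRNA and library. The aligner and miRNA release are not given in the sources used here. Some values are fractions of a read, among them those of products that share sequence.

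The deposited RPM values sum to 999996 and 999845 and were rescaled to 1000000. The worth of 1 read was the most frequent low value, refined by least squares on values near whole multiples of it. Of the values of up to 20 reads, 92.9% of 253 (control) and 91.5% of 224 (knockdown) lay within 0.1 of a whole read. The remaining values did not, and no count test was run because there was 1 library per condition. Fold changes are knockdown over control on log2(RPM + 1), which understates the change of low miRNAs. Ratios are of the RPM without a pseudocount, and their 95% intervals were taken from rounded reads. Groups came from the treatment label. The calculation was tested on simulated data. Alternatives were other scalings, pseudocounts of 0.1 and 10 RPM, a 1.5-fold threshold, filters on low values and other sums.

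All products of the names in the rule are described, with the miRNAs ranked next to the most abundant one and, of the wider lists, those over 3 reads in both libraries. The members and lists were chosen with earlier results of these data known. Hairpins, mature sequences and gene annotation came from RefSeq (GRCh38.p14) and GENCODE 29, and the LOC550643 isoforms from the study's supplement (letters only). Python 3.11.15, numpy 2.4.6, scipy 1.17.1 and matplotlib 3.10.9 were used.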

Additional observations from a re-analysis of the deposited data

How the results depend on the processing

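No paired analysis was possible because there was a single library for either condition. Scaling by the median of ratios or by the 75th percentile raised every log2 ratio by 0.20 or 0.29 and moved the median of all 425 miRNAs from -0.20 to -0.0019 or 0.09; the miRNAs beyond 2-fold then numbered 83 higher and 90 lower, or 86 and 77, in place of 76 and 116. Under these scalings the median log2 fold change of the mesenchymal miRNAs was 0.63 and 0.73 in place of 0.43, their number beyond 2-fold higher 2 and 2 in place of 1, their summed level in the knockdown 66826 and 71361 RPM, its ratio to the control 1.82 and 1.95, and the log2 fold change of miR-143-3p 0.88 and 0.98. The median was 0.44 and 0.34 with pseudocounts of 0.1 and 10 RPM and 0.33 over those that exceeded 3 reads in both libraries. The mesenchymal number beyond the threshold on the higher side was 3 at 1.5-fold and 2 and 0 with the pseudocounts of 0.1 and 10 RPM. Of all 425 miRNAs, 22.4% were higher beyond 1.5-fold, and 18.4% and 4.47% were higher beyond 2-fold with these pseudocounts. The main arms alone (miR-143-3p, miR-145-5p, miR-214-3p and, of the miR-199 3p arm, the reads listed as miR-199a-3p but not those listed as miR-199b-3p) summed to 57528 RPM in the knockdown. The epithelial number beyond 2-fold went from 1 to 0 in each direction with the pseudocount of 10 RPM, where 4.47% of all 425 miRNAs were higher and 5.88% lower. It was also 0 in each direction with more than 3 reads required in at least 1 library. The epithelial number on the higher side was 0 as well when a value above 0 was required in both libraries. Counted as detected at more than 3 reads, there were 0 epithelial miRNAs in the control and 1 in the knockdown, and at 10 RPM 0 in each. The mesenchymal miRNAs numbered 7 in the control and 9 in the knockdown at more than 3 reads, and 9 in each at 10 RPM. Of 55 log2 fold changes recomputed, 53 stayed within their counting intervals. The 2 that left theirs were those of miR-143-3p under the other scalings, 0.88 and 0.98 against an interval of 0.65 to 0.72. The intervals of the other miRNAs were wider, and 11 of the 55 were the values as deposited, nearly equal to the rescaled ones. In all, 8 changed sign (miR-145-3p, miR-199a-3p, miR-199b-3p and the joined miR-199 3p arm, from negative to positive under both of the other scalings). The 8 arm shares taken from rounded reads could not leave their intervals, because the intervals were computed from the same rounded reads. Depth limits the epithelial miRNAs and the minor arms of miR-143, miR-145 and miR-214, which rest on 0 to 21 reads a library, and without replicates the spread between cultures is unknown.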
